A study of Mus musculus with 64 samples.

Results

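The cytosolic ribosomal protein genes encode the proteins of the 2 subunits of the ribosome that translates nuclear-encoded mRNA. They were taken from the gene count table as the GENCODE protein-coding genes of mouse whose symbol is Rpl or Rps followed by a digit, together with Rplp0, Rplp1, Rplp2 and Rpsa. Pseudogenes and the Rps6k kinases were left out. This rule used no measured value and gave 86 of the 52636 genes in the table, of which 52 carry a large subunit (60S) symbol and 34 a small subunit (40S) symbol. One of them, Rps19bp1, was matched by its symbol only, since it encodes a partner of Rps19 and of the deacetylase SIRT1 and no ribosomal subunit. The subunit genes Fau and Rack1 have other symbols and are described beside the members.

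RNA of 2 fat depots of male mice was sequenced, brown adipose tissue (BAT) and the white fat of the epididymis (eWAT), collected at Zeitgeber time (ZT) 6, 10, 18 or 22, counted in h from lights on. Fat-specific Nampt knockout (FANKO) mice carried a Nampt allele with loxP sites around exon 3 (Nampt tm1Jtree) and Adiponectin-Cre, which acts in adipocytes, so other cells of the tissue kept the gene. Wild-type (WT) mice were littermates without Cre from the same cross, and the animals were between 2 and 4 months old. There were 64 samples, 16 per depot and genotype, with 4 at every time point. The labels do not say that each sample came from its own mouse, so p values measure the spread between these samples.

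Total counts ranged from 6117343 to 30544847 per sample. Levels are given as CPM, the counts of a gene scaled to a fixed library total, after TMM scaling. TMM takes most genes as unchanged between samples. Nampt lay between 479 and 1450 CPM in WT BAT and between 109 and 186 CPM in FANKO BAT, with no overlap. In eWAT it lay between 112 and 310 CPM in WT and between 101 and 131 CPM in FANKO samples, so the ranges overlapped. The 5 brown adipocyte markers summed to a median of 6710 CPM in WT BAT and 15.4 CPM in WT eWAT. The median share of counts from mitochondrial DNA was 24.6% (WT) and 14.7% (FANKO) in BAT, and 6.55% (WT) and 10.7% (FANKO) in eWAT. FANKO BAT also held fewer adipocyte transcripts and more transcripts of macrophages and B cells. Not every other cell type rose: the 5 endothelial markers summed to a median of 488 CPM in WT BAT and 352 CPM in FANKO BAT. The 6 adipocyte markers summed to 10400 to 13600 CPM in WT BAT and to 4790 to 8360 CPM in FANKO BAT, the 9 macrophage markers to 110 to 207 against 675 to 1660 CPM, and the 6 B cell markers to 5.39 to 12.7 against 184 to 1790 CPM. The part of these markers in the results was not tested, and in bulk tissue fewer cells of a type and less RNA per cell cannot be told apart.

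Ribosomal proteins are made in near equal numbers, since each ribosome holds 1 copy of most of them, and a cell that grows or divides makes more ribosomes. Many of their mRNAs in vertebrates begin with a C followed by a run of pyrimidines, the 5′ terminal oligopyrimidine (TOP) motif, through which the growth kinase mTORC1 and the RNA-binding protein Larp1 control their translation and stability. Brown adipocytes are rich in mitochondria, which have ribosomes of their own built from other proteins.

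The first 25 bases of 6 members, read from GENCODE M21 transcripts, are shown because they carry such a run and because their levels moved in different ways between the genotypes. Capitals mark the run, defined as C followed by at least 4 C or T. Rps2 and Rps27l were called lower in FANKO BAT, Rps15a and Rps27 higher, and Rpl18 and Rps21 neither. In FANKO eWAT all but Rps27 were called higher. Rps21 and Rps27 were added after their values were seen. Except for Rps2, the run is also present at the start that RefSeq gives.
Rps2: CTTCTTCTTCTTCgggagaacacgt
Rps27l: gCCTCTatcccggaagttgctgagg
Rps15a: CTCCCgaaagggggtgtgtgtgtgt
Rps27: gCTCCTTTCCggcggtgacgacctc
Rpl18: gCTCTTTCCCCgcccactccggcgc
Rps21: CCCTCCTgcccaatagtgctgcgga

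A run that began within the first 3 bases was present in 17 of 86 members (19.8%) and in 5.68% of 21866 protein-coding genes. At the first base itself the counts were 12 members (14%) and 2.13% of genes. These windows were chosen after other widths had been looked at. The annotated starts are uncertain to several bases: of 66 members with a RefSeq start as well, 20 had the run there (30.3%, against 7.63% of 27025 genes), and 6 had it in both annotations. At the GENCODE starts the run was present in 4 of the 21 called higher in FANKO BAT, 3 of the 16 called lower and 10 of the 48 not called.

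Promoters were read from RefSeq on GRCm38.p6, as the 250 bases before the start of the 66 members for which a window was given, and searched on both strands. CCGGAAG, the core bound by ETS factors, was present in 19 of 66 members (28.8%) and in 7.83% of 27025 genes, and TCTCGCGA was present in 10 members (15.2%) and 0.977% of genes. The palindromic form TCTCGCGAGA counts once on each strand. The GC box GGGCGG was present in 34 members (51.5%, against 35.4%), CTTTCC in 22 (33.3%, against 25.4%), the E-box CACGTG in 5 (7.58%, against 6.86%), AAGATGGC in 3 (4.55%, against 1.83%) and TATAAA in 4 (6.06%, against 14.3%). The motifs were chosen after the sequences had been seen, and a match is not evidence of binding. Stretches of 70 bases are shown for 5 members called in BAT, in either direction, and for Rpl26, which was called in eWAT only. Capitals mark matches to CCGGAAG, TCTCGCGA and CACGTG, and matches to the other motifs were left in lower case.
Rpl12, chr2:32961613-32961682, plus strand, higher in FANKO BAT: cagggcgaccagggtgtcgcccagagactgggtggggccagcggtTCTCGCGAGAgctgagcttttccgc
Rps15a, chr7:118116191-118116260, minus strand, higher in FANKO BAT: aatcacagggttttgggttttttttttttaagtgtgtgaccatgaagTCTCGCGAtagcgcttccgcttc
Rpl26, chr11:68901495-68901564, plus strand, not called in BAT: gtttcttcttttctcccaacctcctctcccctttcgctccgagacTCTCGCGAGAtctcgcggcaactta
Rplp2, chr7:141447495-141447564, plus strand, lower in FANKO BAT: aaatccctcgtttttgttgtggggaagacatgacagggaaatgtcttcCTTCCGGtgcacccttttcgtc
Rps2, chr17:24719888-24719957, plus strand, lower in FANKO BAT: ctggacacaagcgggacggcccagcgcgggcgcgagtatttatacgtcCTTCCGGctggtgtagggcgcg
Rpl19, chr11:98026640-98026709, plus strand, lower in FANKO BAT: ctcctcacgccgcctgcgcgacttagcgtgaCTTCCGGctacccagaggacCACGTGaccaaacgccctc

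CCGGAAG was present in 5 of the 16 members with a window that were called higher in FANKO BAT, in 6 of the 11 called lower and in 8 of the 38 not called. The corresponding counts for TCTCGCGA were 4, 2 and 4. These are counts of letters in a window and were given no test.

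The members spanned a wide range of levels although most of their proteins are needed in near equal number. Exon length covers all annotated exons of a gene, which for some members far exceeds the length of 1 mRNA. It was 2072 against 421 nt for Rplp2 and 6270 against 640 nt for Rps15a, but 499 against 499 nt for Rplp1. The order and spread of levels per kb thus depend in part on the annotation. Per kb of exon, Rplp1, a stalk protein, stood highest at 365 ± 55.7 CPM per kb (SD, n = 64), above Rps15 (218 ± 31.4) in 64 of 64 samples. Rps15 encodes a 40S protein. Further down the order was not fixed: Rpl4, Rpl36, Rpl8 and Rplp0 lay between 158 and 147 CPM per kb, and neighbors among them differed by less than their SD. The 10 highest members held 38.2% of the summed level per kb, and the highest was 11.2-fold above the median member. At the low end stood 3 paralogues, Rpl39l (1.94 ± 2.5), Rps27rt (1.46 ± 0.662) and Rpl3l (0.237 ± 0.254), the last known as the form of Rpl3 made in striated muscle. Rpl10l, known from the testis, had at most 1.58 CPM in any sample and did not pass the filter on low counts, so 85 members were tested. The order of levels was nearly the same in both depots and genotypes, with Spearman's rho between 0.98 and 0.99 for the 6 pairs over 85 genes, which share gene lengths and libraries of 1 kind.

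**Figure D1:**
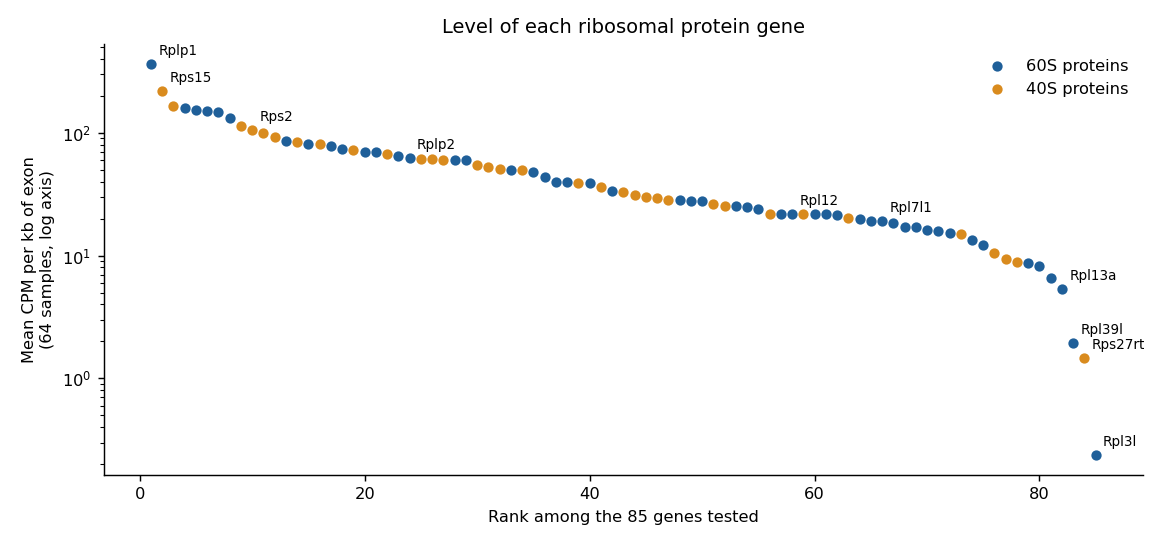
Mean CPM per kb of exon (log axis) of the 85 members tested, over all 64 samples, in order of level, with 60S and 40S genes in different colors. Rplp1 stands at 365 and Rpl3l at 0.237 CPM per kb, and the other members fall between these.

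The table also lists 291 pseudogenes named after members, which took 0.489 to 0.754% as many counts as the members, and the setting for reads that map to several places is not given in the sources used here. The exons of 38 members overlap an exon of another gene, and 30 members host or span a small nucleolar RNA gene. Rps27 and Rps27rt are near-identical copies, so their separate values are uncertain.

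In BAT all 86 members together took 0.506 ± 0.0809% of the counts of WT samples (SD, n = 16) and 0.764 ± 0.121% of those of FANKO samples. In eWAT they took 0.791 ± 0.0635% and 0.844 ± 0.0674%. On this scale FANKO BAT stood above WT BAT and close to eWAT. On the TMM scale the summed levels were 6920 ± 608 (WT) and 6940 ± 675 CPM (FANKO) for BAT, and 6480 ± 505 and 8190 ± 675 CPM for eWAT, so the 2 BAT groups were level and FANKO eWAT stood highest. TMM factors had medians of 0.74 (WT) and 1.08 (FANKO) for BAT and of 1.23 and 1.04 for eWAT. Counts give shares only, and which scale is nearer to the amount of mRNA per cell was not tested. With library size as the only scaling, the median of all genes tested shifted by 0.58 log2 in BAT and by -0.27 in eWAT between FANKO and WT, and the members shifted with it. The members' median relative to that of all genes was 0.02 log2 in BAT and 0.34 in eWAT with TMM, and 0.03 and 0.34 with library size alone.

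**Figure D2:**
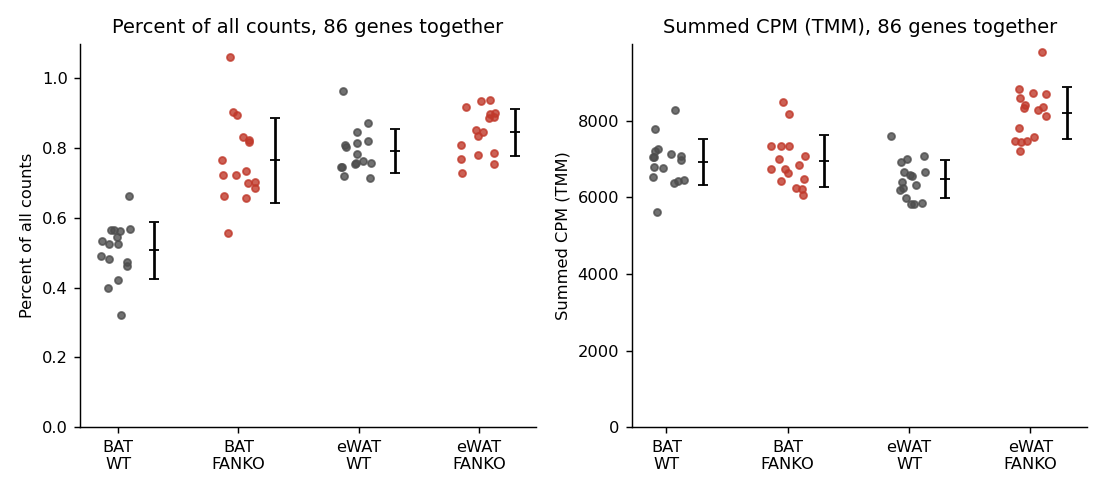
The 86 members together as a percent of all counts (left) and as summed TMM-scaled CPM (right), 1 point per sample, with the mean and SD of 16 samples beside the points. By the mean, FANKO BAT lies above WT BAT on the left (0.764 against 0.506%) and level with it on the right (6940 against 6920 CPM). FANKO eWAT has a higher mean than WT eWAT on both scales. On the left, however, its samples (0.727 to 0.936%) lie within the range of WT eWAT (0.714 to 0.963%).

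The first comparison asked how the members changed in BAT that lacks adipocyte Nampt. They did not move together: of 85 members tested, 21 were higher in FANKO BAT (33.1% of all 20249 genes tested were higher), 16 were lower (33.9% of all genes) and 48 were not called, at an FDR of 0.01 in edgeR's quasi-likelihood test. Both shares lay below those of all genes, and the members' median was 0.02 log2 against 0.00 for all genes. The 40S genes had 13 higher and 7 lower of 34, and the 60S genes 8 higher and 9 lower of 51. Without the 6 FANKO BAT libraries whose B cell markers summed to more than 500 CPM, 10 were higher and 16 lower, and without the 7 BAT libraries with over 100 CPM of skeletal muscle markers, 25 were higher and 9 lower. The split was 27 and 13 with DESeq2, 26 and 12 with RLE factors, and 76 and 1 with library size alone, so a count of directions in BAT holds only for its scaling.

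The acidic stalk proteins, which recruit translation factors to the 60S subunit, moved apart. Rplp2 ranged from 131 to 203 CPM in WT BAT (median 170) and from 76.2 to 121 CPM in FANKO BAT (median 93), so that every FANKO sample lay below every WT sample. Rplp2 was the only member of 85 with separate ranges in BAT (10% of all genes lay wholly below and 12.5% wholly above WT). It fell by 0.83 log2 (SE 0.06, adjusted p = 5.5e-19), and remained lower under each scaling tried. Its partner Rplp1 (0.08 ± 0.06 log2, SE, adjusted p = 0.228) and Rplp0, which anchors both (0.10 ± 0.05, adjusted p = 0.0815), were not called. Rpl12, which binds at the base of the stalk, was higher in FANKO BAT: 47 to 73.5 CPM in WT (median 57.2) and 66.7 to 110 CPM in FANKO samples (median 83.9), a change of 0.57 ± 0.06 log2 (adjusted p = 1.1e-13). The exons of Rplp2 overlap the small nucleolar RNA Snora52, and those of Rpl12 overlap Snora65 and, on the other strand, Lrsam1.

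Other members fell in FANKO BAT by less. The 60S gene Rpl36 fell from a median of 73.1 CPM (55.7 to 89.8) to 47.8 CPM (32.6 to 57.9), by 0.68 log2 (SE 0.07, adjusted p = 6e-14). Rps27l, a paralogue of Rps27 known as a p53 target, fell from 81.1 CPM (69.4 to 100) to 50.8 CPM (36.3 to 72.9), by 0.63 log2 (SE 0.06, adjusted p = 6.1e-14). The ranges overlapped at their edges in both. Rpl23a, which sits where the new chain leaves the ribosome, fell by 0.42 log2 (adjusted p = 7.1e-08), and Rps29 by 0.36 (adjusted p = 0.00792). Rps29 was not called with DESeq2, with RLE factors, or without replicate 2, 3 or 4. Neither Rpl23a nor Rps29 was lower with library size alone, where their values were 0.16 and 0.24 log2. Rpl36 and Rps27l kept their sign there but were not both called lower. That scaling moved the members upward as a group, so the sizes of these falls hold for TMM only.

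Rising members included 40S and 60S genes. Rpl17, which lines the exit tunnel, went from a median of 64.4 CPM (51.8 to 72.9) in WT to 85.2 CPM (71.4 to 109) in FANKO BAT, 0.42 ± 0.07 log2 (adjusted p = 8.9e-08). Rps15a rose by 0.40 ± 0.08, Rpl10, a late-joining protein near the catalytic center, by 0.37 ± 0.06, and Rps12 by 0.35 ± 0.07 log2. Rpl39l, the paralogue of the tunnel protein Rpl39, had the largest change at 1.98 ± 0.30 log2 (adjusted p = 5.4e-08), from a very low level: 0.702 to 2.12 CPM in WT BAT (median 1.23) and 2.06 to 6.88 CPM in FANKO BAT (median 5.11). The single highest WT sample thus overlapped the lowest FANKO sample. Rpl39 itself differed by 0.16 ± 0.07 log2 (adjusted p = 0.0319) and was not called. Rpl3l, which marks muscle, gave -0.84 ± 0.32 log2 (adjusted p = 0.0175) and was not called, beside skeletal muscle markers that summed to 0.634 to 432 CPM in WT BAT and 2.64 to 386 CPM in FANKO BAT. Without replicate 2 it was called.

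**Figure D3:**
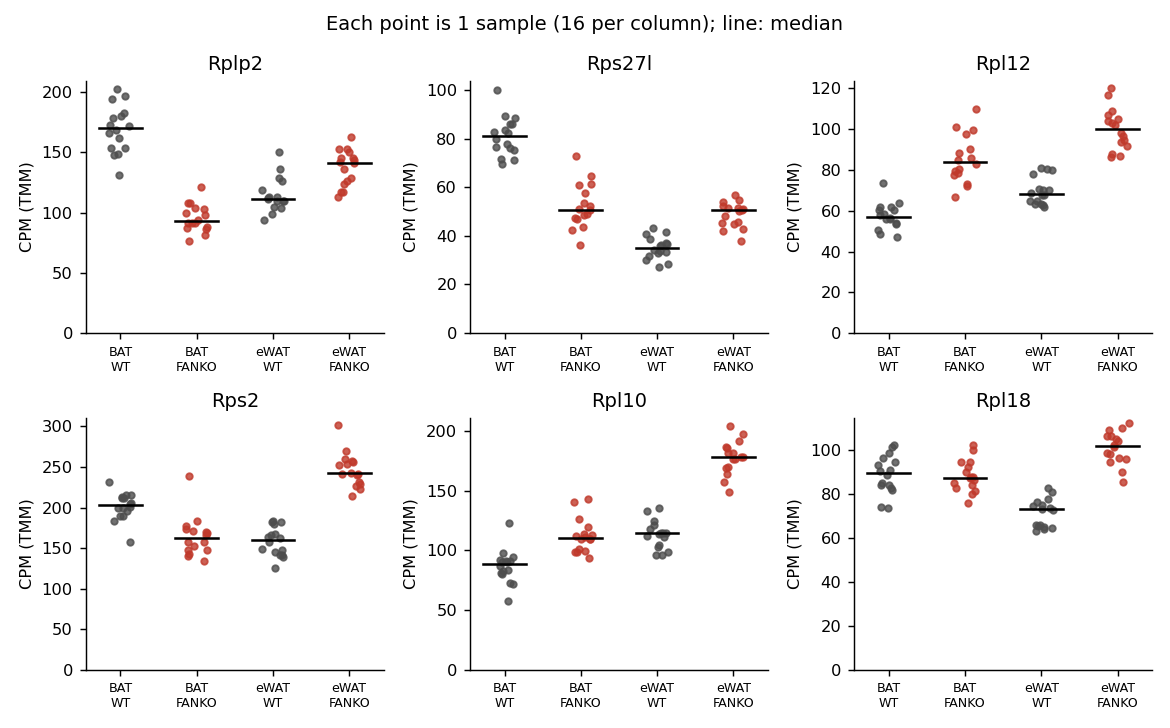
TMM-scaled CPM of 6 members in every sample, 16 per depot and genotype, with a line at the median. Rplp2 in BAT shows no overlap between WT (131 to 203) and FANKO (76.2 to 121), Rps27l and Rpl12 move in opposite ways in BAT and both upward in eWAT, and Rps2, Rpl10 and Rpl18 separate the genotypes in eWAT.

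The second comparison asked the same of eWAT, where the members moved one way. Of 85 tested, 71 were higher in FANKO eWAT (27.6% of all genes were higher) and 0 were lower (22.8% of all genes were lower), with 14 not called. At an unadjusted p under 0.05 the number was 75. With TMM the fold change was positive in 84 of 85, Rpl39l being the exception, with a median of 0.32 log2 (1.25-fold) against -0.02 for all genes. Both subunits took part, with 43 of 51 60S genes (median 0.33) and 28 of 34 40S genes (median 0.31). The median difference was 0.32 (ZT 6), 0.46 (ZT 10), 0.21 (ZT 18) and 0.24 (ZT 22), and 76 of 85 members were higher at all 4 time points. The count depended on the setting more than the direction did: it was 60 with DESeq2, 42 without replicate 3, 25 with library size outside the mitochondrial genome and 12 with library size alone, with 0 members lower each time.

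In 10 of 85 members every FANKO eWAT sample lay above every WT eWAT sample (4.57% of all genes did so, and 1.33% lay wholly below). These were Rpl4, Rpl10, Rpl12, Rpl18, Rpl19, Rpl26, Rplp0, Rps2, Rps15 and Rpsa. Rps2, a 40S protein near the entry of the mRNA channel, ranged from 126 to 184 CPM in WT (median 159) and from 214 to 302 CPM in FANKO eWAT (median 243), a change of 0.64 ± 0.05 log2 (SE, adjusted p = 7.8e-16). Rpl18 ranged from 62.9 to 82.4 CPM (median 72.9) and from 85.1 to 112 CPM (median 102), 0.50 ± 0.04 log2 (adjusted p = 9.9e-16). Rpl10 ranged from 96 to 136 CPM (median 114) and from 149 to 204 CPM (median 178), 0.65 ± 0.06 log2 (adjusted p = 7.9e-14). The distance between the groups was thus small in fold and larger than the spread of single samples. The exons of Rps2 overlap Snhg9 on the other strand and Snora64, those of Rpl10 overlap Snora70, and those of Rpl18 overlap Sphk2 on the other strand.

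Rpsa, the 40S protein also known as the laminin receptor, rose by 0.57 ± 0.06 log2 (adjusted p = 2.6e-13), from a median of 145 CPM (120 to 160) to 214 CPM (176 to 254). Rpl19 rose by 0.50 ± 0.05 log2, from 55.5 to 70.9 CPM in WT to 76.7 to 115 CPM. Rpl36al, the paralogue of Rpl36a, rose by 0.62 ± 0.07 log2 from a low level, with 5.2 to 9.09 CPM in WT and 7.97 to 13.5 CPM in FANKO eWAT, and Rpl37 and Rpl26 rose by 0.54 log2 each. All 3 stalk genes rose, Rplp0 by 0.39, Rplp1 by 0.27 and Rplp2 by 0.26 log2, of which Rplp1 and Rplp2 were not called without replicate 3. The members not called in eWAT included the paralogues Rpl3l, Rpl39l and Rps27rt, and Rps16, whose 16 samples per group ranged from 14.7 to 39.4 CPM in WT and from 14.8 to 53.1 CPM in FANKO eWAT. Cell markers moved with genotype here too: the 5 stromal markers summed to 1280 to 1670 CPM in WT and 727 to 981 CPM in FANKO eWAT, and the 6 T cell markers to 2.59 to 7.82 against 7.18 to 20.9 CPM. The 5 brown adipocyte markers summed to 9.15 to 27.8 CPM in WT and 37.1 to 79.9 CPM in FANKO eWAT, with no overlap, and the 7 skeletal muscle markers to 6.58 to 84.7 (median 17) against 25.3 to 114 CPM (median 52.2). A sum can follow single genes. Gene by gene, 5 of the 6 T cell markers were called higher in FANKO eWAT and 0 lower. Of the 5 brown adipocyte markers, 1 was called higher and 1 lower. Of the 7 muscle markers, 1 was called higher and 0 lower, with a median of -0.65 log2. Of the 6 B cell markers, 0 were called higher and 4 lower. The sums of the adipocyte markers (10700 to 18000 against 11800 to 17300 CPM) and of the macrophage markers (668 to 1020 against 662 to 1250 CPM) overlapped. The part of the cell markers in the result was not tested.

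Set side by side, 18 members were called higher in both depots and 14 were called lower in BAT and higher in eWAT. A further 39 were called higher in eWAT only, 3 higher in BAT only and 2 lower in BAT only, and 9 were called in neither. Whether the effect differed between depots was tested directly. With TMM, the effect in BAT was below that in eWAT in 48 of 85 members (32.1% of all genes) and above it in 1, Rpl39l (32.2% of all genes), with a median of -0.30 log2 against 0.04 for all genes, while with library size alone the direction turned and 1 was below and 66 above. Relative to the median of all genes the members' median was -0.34 log2 under both. Without replicate 3 the counts were 31 below and 2 above. The largest differences among well expressed members were in Rps27l (-1.11 ± 0.09 log2, adjusted p = 2.8e-17), Rplp2 (-1.09 ± 0.08, adjusted p = 1.5e-17) and Rps2 (-0.94 ± 0.08, adjusted p = 5.3e-17). Rps2 changed sign between depots: it fell by 0.30 log2 in BAT and rose by 0.64 in eWAT, though its fall in BAT was not seen with library size alone (0.29). Rpl12, by contrast, rose by 0.57 and 0.52 log2 in the 2 depots, and the difference was 0.05 ± 0.08 (adjusted p = 0.596).

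**Figure D4:**
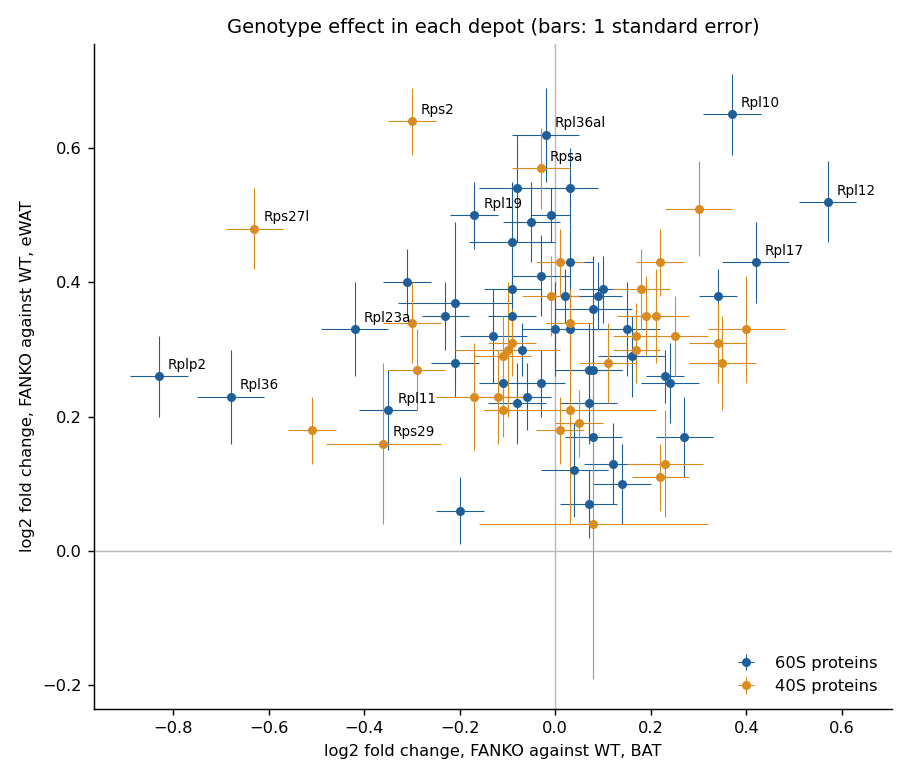
Log2 fold change of FANKO against WT in BAT (horizontal) and eWAT (vertical) after TMM scaling, for 83 members, with bars of 1 SE. Rpl39l and Rpl3l were tested but are left out because their low counts give wide errors. All points lie above 0 in eWAT and on both sides of 0 in BAT, from Rplp2 at -0.83 to Rpl12 at 0.57, and with library size alone the BAT values shift upward so that 76 of 85 members are called higher.

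Between the depots of WT mice, 31 of 85 members were higher in BAT (32.7% of all genes) and 15 higher in eWAT (41.1% of all genes), with a median of 0.09 log2 against -0.11 for all genes, and with library size alone the split turned to 3 and 76. WT BAT samples enter this comparison as well as the genotype comparison in BAT, so the values are given side by side only. Rps27l was 1.21 ± 0.06 log2 higher in BAT (adjusted p = 7.4e-26), with 69.4 to 100 CPM against 27 to 43.4 CPM and no overlap. In FANKO mice its medians were 50.8 CPM in BAT and 50.5 CPM in eWAT. Rpl19 was 0.64 ± 0.05 higher in BAT with TMM and -0.10 with library size alone, and Rpl22l1, the paralogue of Rpl22, was 0.70 log2 lower in BAT (SE 0.06, adjusted p = 5.1e-16), with 8.36 to 13.7 CPM in BAT and 13 to 23.3 CPM in eWAT.

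Some members have roles or uses beyond the subunit. Rpl5 and Rpl11, which bind the 5S rRNA and, when free, the p53 inhibitor Mdm2, differed in BAT: Rpl11 fell by 0.35 log2 (adjusted p = 1e-06; 0.25 and not lower with library size alone) and Rpl5 gave 0.14 ± 0.06 (adjusted p = 0.0284). Of the exit tunnel proteins, Rpl4 and Rpl17 were higher in FANKO BAT and Rpl39 was not called, while each of them rose in eWAT. Rpl22, which was listed with them but does not line the tunnel, was not called in BAT and rose in eWAT. Of 7 members used as reference genes in quantitative PCR (Rplp0, Rpl13a, Rpl19, Rpl32, Rps13, Rps18 and Rps29), 1 was higher and 2 were lower in FANKO BAT, and 6 were higher in FANKO eWAT with TMM, by 0.18 log2 (Rps18) to 0.50 log2 (Rpl19), Rps29 not being called. The fall of Rpl19 in BAT was not called with DESeq2 or RLE factors and was 0.42 log2 with library size alone. Rps18 (0.18 ± 0.05, adjusted p = 0.00404) was not called with DESeq2, RLE factors, either other filter on low counts, or without replicate 1, 2 or 3. Of the 7 paralogues among the members tested, Rpl39l and Rpl22l1 were higher and Rps27l was lower in FANKO BAT, and Rpl7l1, Rpl22l1, Rpl36al and Rps27l were higher in FANKO eWAT.

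Both subunit genes with other symbols were called in both depots. Rack1, a 40S scaffold, rose by 0.38 log2 in BAT and 0.35 in eWAT, and Fau, a ubiquitin-like fusion to a 40S protein, rose by 0.25 and 0.26 log2.

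Genes that work with the ribosome were counted in the same fit. Of 36 translation factors, 7 were higher and 13 lower in FANKO BAT (median -0.04 log2), and 31 higher and 1 lower in FANKO eWAT (median 0.35). The initiation factor 3 subunits Eif3l and Eif3i fell by 1.00 and 0.63 log2 in BAT, where Eif3d rose by 0.36 and Eif6 by 0.35, and Eif3d and Eif3c rose by 0.82 and 0.69 in eWAT, where the poly(A)-binding protein Pabpc1 fell by 0.22. Of 25 known TOP transcripts that encode no Rpl or Rps protein, 8 were higher and 6 lower in BAT and 20 higher and 3 lower in eWAT. Vim, an intermediate filament gene of mesenchymal and immune cells, rose by 0.72 in BAT and fell by 0.43 log2 in eWAT, beside the stromal markers that moved the same ways. Gas5, a host of small nucleolar RNAs, rose by 0.57 log2 in BAT, and in eWAT the nucleolar gene Npm1 rose by 0.53 and the histone chaperone Nap1l1 fell by 0.60.

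Of 73 ribosome biogenesis genes tested, 35 were higher and 15 lower in FANKO BAT (median 0.13 log2) and 49 higher and 2 lower in eWAT (median 0.29). In BAT Tcof1, a nucleolar factor for rRNA synthesis, rose by 1.21 and Gnl3 by 0.77 log2, while Nop10 and Dkc1, which belong to 1 RNA-protein complex that modifies rRNA, fell by 1.22 and 0.81. In eWAT Gnl3 rose by 0.77 and Rpf2 and Bysl by 0.68, and Rrs1 and Ubtf fell by 0.22 and 0.19 log2. Among 17 genes of mTORC1 and of the control of TOP translation, 4 were higher and 9 lower in BAT and 11 higher and 1 lower in eWAT. Myc, which drives ribosome production, rose by 1.38 ± 0.18 log2 in BAT (adjusted p = 3.2e-10) and its partner Max by 0.53, and the translation repressors Eif4ebp2 and Eif4ebp1 fell by 0.97 and 0.84. In eWAT Mtor rose by 0.71 and Eif4ebp1 by 0.51, and Eef2k, which inhibits elongation, fell by 0.49 log2.

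The mitochondrial ribosomal proteins are encoded by other genes and serve translation inside mitochondria. All 77 tested were lower in FANKO BAT, with a median of -0.85 log2, whereas 69 were higher and 1 lower in eWAT, with a median of 0.48. Cytosolic members also had short mRNAs, so the 1096 other coding genes tested with an mRNA under 1000 nt were counted: 314 were higher and 512 lower in BAT (median -0.22), and 522 were higher and 111 lower in eWAT (median 0.25). Among the members, those called higher in BAT had a median mRNA length of 799 nt and a median GC content of 50%, and those called lower 619 nt and 53.2%. Across the 85 members, GC content and the BAT fold change had Pearson's r = -0.30 and Spearman's rho = -0.30, against 0.00 and 0.02 across 20207 genes tested, with all values drawn from the same libraries.

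The last question was time of day, in a model with a 24 h cosine. For BAT, rhythm was called in 0 of 85 members in WT (13.9% of all genes) and 0 in FANKO mice (2.84%). For eWAT it was called in 3 in WT (9.38%) and 0 in FANKO mice (6.77%). Both DESeq2 and limma-voom gave the same 4 counts, but the 3 members in WT eWAT became 1 with library size alone or without replicate 2 or 3, and 2 without replicate 1 or 4. In the same order, the numbers at an unadjusted p under 0.05 were 0, 6, 12 and 2. The range from the lowest to the highest time-point mean had a median over members of 0.12 (WT) and 0.17 log2 (FANKO) for BAT and of 0.18 and 0.12 for eWAT, so a rhythm of that size may be present and not be called with 4 samples per time point.

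The 3 rhythmic members in WT eWAT were Rpl7l1, a paralogue of Rpl7 that acts in the assembly of the 60S subunit (adjusted p = 3.8e-07), Rps19bp1 (0.00121) and Rpl8 (0.00759). Rpl7l1 was called under each alternative run. Rps19bp1 was not called with library size alone or without replicate 2 or 3. Rpl8 was not called with any 1 of the 4 replicate numbers left out, with library size alone, or with either other filter on low counts. It was also not called with time point as a factor in place of the cosine (adjusted p = 0.0156) or with a separate fit per depot (0.014). The same held with library size outside the mitochondrial genome (0.253) and without the BAT libraries high in muscle markers (0.0102). Rpl7l1 stood at 40.5 ± 4.19 CPM at ZT 6 and 39.5 ± 1.13 at ZT 10 (SD, n = 4), in the light, and at 57.7 ± 8.87 at ZT 18 and 66.2 ± 10 at ZT 22, in the dark. In FANKO eWAT its means lay between 67.9 and 72.6 CPM at all 4 time points, at the level of the WT night. The rhythm of Rpl7l1 differed between genotypes in eWAT (adjusted p = 0.00278), the only such call among 85 members (1.15% of all genes), but not without replicate 1, 2 or 3 or with library size alone. In BAT 0 of 85 were called for a difference in rhythm (2.76% of all genes), with 2 at an unadjusted p under 0.05 and 0 by DESeq2 and limma-voom, and Rpl7l1 gave an adjusted p of 0.0356. Its WT BAT means were 77.1, 79.7, 63.5 and 77.2 CPM from ZT 6 to ZT 22, and its FANKO BAT means 64.3, 68.2, 81 and 74.7 CPM. Rpl8, a protein next to the catalytic center, went from 168 ± 1.96 CPM at ZT 10 to 205 ± 25 at ZT 18 in WT eWAT, and lay between 227 and 234 CPM in FANKO eWAT. Rps19bp1 went from 7.61 ± 0.725 CPM at ZT 10 to 11.2 ± 1.86 at ZT 22 in WT eWAT, and from 9.80 ± 0.861 to 12.5 ± 1.34 in FANKO eWAT, where its rhythm was not called.

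**Figure D5:**
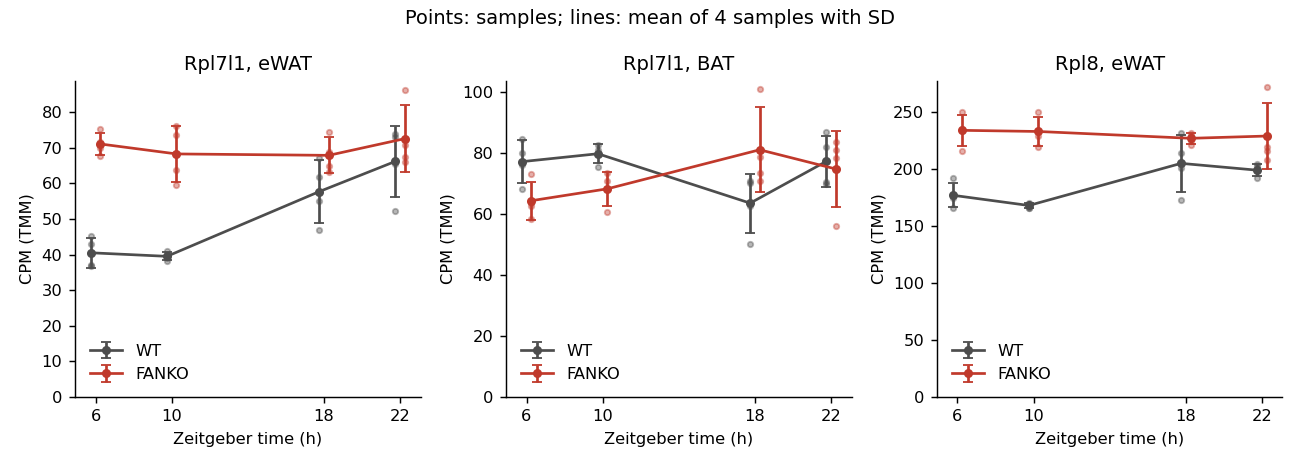
TMM-scaled CPM against Zeitgeber time for Rpl7l1 in eWAT and BAT and for Rpl8 in eWAT, with points for samples and lines through the mean and SD of 4 samples. In eWAT the WT lines are low at ZT 6 and ZT 10 and higher at ZT 18 and ZT 22 (Rpl7l1 39.5 to 66.2 CPM), while the FANKO lines stay near the upper level.

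Among the ribosome biogenesis genes, rhythm was called in 33 of 73 in WT eWAT (9.38% of all genes) and 3 in FANKO eWAT (6.77%). In BAT it was called in 11 in WT (13.9% of all genes) and 1 in FANKO mice (2.84%). A difference of rhythm was called in 6 of the 73 in eWAT (1.15% of all genes) and in 3 in BAT (2.76%). Of 36 translation factors, 10 were called in WT eWAT and 0 in FANKO eWAT, and of 77 mitochondrial ribosomal proteins 7 and 0. The 7 of 77 are a share near that of all genes. A difference of rhythm in eWAT was called in 1 of the 36 and 0 of the 77, so these counts do not show a loss of rhythm.

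Within a depot and genotype the members varied together. Over 77 members without paralogues and Rps19bp1, after removal of time-point means, the median pairwise correlation was 0.68 (WT) and 0.69 (FANKO) for BAT and 0.59 and 0.69 for eWAT, each over 16 libraries that share 1 scaling factor per library. The mitochondrial ribosomal proteins gave 0.30, 0.70, 0.55 and 0.43. Rps16 and Rpl24, chosen after their values were seen, went against the rest in 1 depot each. The correlation with the mean of the other members was -0.59 and -0.61 for Rps16 in WT and FANKO BAT. For Rpl24 it was -0.46 and -0.42 in WT and FANKO eWAT. In the other depot it was 0.40 and 0.55 for Rps16 (WT and FANKO eWAT) and 0.01 and 0.15 for Rpl24 (WT and FANKO BAT). Within a depot, the replicate number took 75% of the within-group spread of Rps16 and 76.9% of that of Rpl24. Its median share was 42.6% over the members and 15.1% over all genes. The part of the replicate number in the correlations was not tested.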

How the data were processed

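Total RNA depleted of ribosomal RNA (TruSeq Stranded Total RNA, Ribo-Zero Gold) was sequenced as 38-bp paired-end reads. The authors deposited raw counts per gene, made with STAR 2.5.3a and featureCounts 1.5.3, per the submitters' processing notes on GRCm38.p5 and GENCODE 15. The strand and multimapping options are not given in the sources used here. Gene types and exon lengths were taken from GENCODE M21, and promoters from RefSeq.

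The 86 members and all gene lists were chosen with earlier results of these data known. One edgeR 4.0.16 quasi-likelihood model (R 4.3.3) with mean, cosine and sine of a 24 h period per depot and genotype was fitted to all 64 samples and 20249 genes after filterByExpr (minimum count 10) and TMM, and p values were adjusted over all genes tested (Benjamini-Hochberg, FDR 0.01). Standard errors are the fold change divided by the square root of F. The model was tested on simulated counts. Depth was 6117343 to 30544847 counts per sample.

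Members named were, in each genotype comparison, the 6 with the largest called rise and the 6 with the largest called fall at a mean of at least 1 CPM and the 3 with the smallest p. In the other tests they were the 3 called with the smallest p. Added to these were the 3 highest and 3 lowest per kb of exon, the listed stalk, 5S, reference and paralogue genes, Rps19bp1 and the subunits with other symbols, and of other lists the 2 largest called changes each way. Other genes were added after their values were seen. Alternatives were other scalings, filters, tools (DESeq2 1.42.0, limma 3.58.1), thresholds, replicate blocks and each replicate left out. Scaling without the mitochondrial genome and without TMM, blocks within depot, and the removal of libraries high in muscle or B cell markers were chosen after seeing the data. Motifs and sequence windows were also chosen then. Protein sequences were not used here, and some genes that the rule names are not reported here.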

Additional observations from a re-analysis of the deposited data

Results flagged for a closer look

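The effect of genotype differed between BAT and eWAT, by a test of the difference itself after TMM scaling, in 21 of the members named. The difference (BAT minus eWAT, log2) was -1.11 in Rps27l, -1.09 in Rplp2, -0.94 in Rps2 and -0.9 in Rpl36. It was -0.75 in Rpl23a, -0.67 in Rpl19, -0.64 in Rpl36al, -0.62 in Rpl37 and -0.6 in Rpsa. It was -0.56 in Rpl11, -0.54 in Rpl7l1, -0.52 in Rpl18, -0.52 in Rps29, -0.51 in Rpl26 and -0.41 in Rps15, and -0.37 in Rpl8, -0.35 in Rps19bp1, -0.29 in Rplp0 and -0.28 in Rpl10. Among genes of low count it was -1.53 in Rpl3l and 3.01 in Rpl39l, where 1 WT eWAT library held 2.35 CPM of Rpl39l against a median of 0.0594 CPM.

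The rhythm of Rpl7l1 differed between genotypes in eWAT (edgeR adjusted p = 0.00278).

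One library stood apart from its group of 4: the summed level of the members was 9790 CPM in FANKO eWAT at ZT 22, replicate 3. This was 1 of 48 groups tested, and chance marks about 1 in 20.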

How the results depend on the processing

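The members' median relative to all genes was -0.01 to 0.06 log2 in BAT and 0.29 to 0.38 in eWAT under every alternative run, while counts of calls moved with the scaling. With library size alone, 77 members were called in BAT, 12 in eWAT, 67 for the difference between depots, 79 between WT depots, 1 for rhythm in WT eWAT and 0 for a rhythm difference in eWAT. With library size outside the mitochondrial genome, the numbers were 70 in BAT (67 higher and 3 lower), 25 in eWAT, 47 for the difference (43 above and 4 below), 60 between WT depots (5 and 55), 1 for rhythm in WT BAT and 1 for a rhythm difference in BAT. At an FDR of 0.05, 1 member was rhythmic in FANKO BAT and 1 differed in rhythm in BAT. DESeq2 and RLE factors gave 36 and 35 for the difference between depots. Removing libraries high in B cell markers left 26 calls in BAT, and removing those high in muscle markers left 34 for the difference. Leaving out each replicate in turn gave 29 to 37 calls in BAT, 42 to 72 in eWAT, 33 to 50 for the difference, 40 to 46 between WT depots, 0 to 1 for rhythm in FANKO BAT, 1 to 2 in WT eWAT and 0 to 1 for the rhythm difference in eWAT. The share of counts then lay at 0.48 to 0.533% in WT BAT, 0.725 to 0.796% in FANKO BAT, 0.772 to 0.805% in WT eWAT and 0.821 to 0.865% in FANKO eWAT, and outside the mitochondrial genome it was 0.681, 0.89, 0.852 and 0.944%. Fold changes that turned with library size alone were, in BAT, Rpl23a 0.16, Rps29 0.24, Rps2 0.29, Rpl36al 0.58, Rpsa 0.57, Rpl37 0.51, Rpl18 0.58, Rpl19 0.42, Rpl7l1 0.55, Rps19bp1 0.47, Rpl8 0.52 and Rpl11 0.25, in eWAT, Rpl36 -0.02, Rpl22l1 -0.07, Rps19bp1 -0.01, Rpl11 -0.04 and Rps18 -0.07, and between WT depots Rpl19 -0.1. With library size outside the mitochondrial genome those that turned were, in BAT, Rps29 0.02, Rps2 0.08, Rpl36al 0.37, Rpsa 0.36, Rpl37 0.3, Rpl18 0.37, Rpl19 0.21, Rpl7l1 0.34, Rps19bp1 0.26, Rpl8 0.31 and Rpl11 0.04, and in eWAT, Rpl22l1 -0.02 and Rps18 -0.01. The causes were not tested. Over all genes, deviations of same-numbered samples had a mean correlation of 0.0318 between different groups, and 10 of 32 same-numbered pairs of BAT and eWAT samples were over 0.1. Over the members alone the same-numbered samples did deviate together, with a mean of 0.212 (-0.0699 for different numbers) and 26 of 32 pairs over 0.1. The labels give the number no meaning, and not every pair passed 0.1, a limit that cannot decide whether samples were paired. The number was not taken as a pairing, so p values between depots treat same-numbered samples as independent. With a block for each same-numbered pair, the 6 results of named members compared between depots kept their direction and call. With the replicate block 39 members were called in BAT, 73 in eWAT, 53 for the difference and 50 between WT depots. Low counts limit Rpl3l, Rpl39l, Rps27rt and Rpl10l.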

Other observations

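The replicate number in the labels, which the labels do not call a batch, went with a larger share of the spread of the members than of other genes. Within a depot it took a median of 42.6% of the members' spread within groups, against 15.1% over all genes, and more than 50% in 22 of 85 members (25.9%) against 1.23% of genes. The highest values were in Rpl38 (84.1%), Rps29 (77.9%), Rpl24 (76.9%) and Rps16 (75%). These genes were chosen after their values were seen. In BAT, Rps16 had a median of 22.5 CPM in the 8 samples numbered 1, 33.8 CPM in those numbered 2, 30.8 CPM in those numbered 3 and 14.4 CPM in those numbered 4, and the ranges of numbers 2 (29.7 to 39.2) and 4 (12.1 to 19.1) did not overlap. In eWAT the medians were 17.6, 31.9, 33 and 35.9 CPM. Rpl24 had medians of 11.5, 10.2, 7.47 and 8.22 CPM in BAT and of 11.3, 8.63, 8.78 and 6.36 CPM in eWAT. What the numbers stand for was not tested.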
